A study of Mus musculus with 48 samples.

Results

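The cerebellum of mice that carry a heterozygous 7qF3 deletion was compared with the cerebellum of their wild-type controls. Mouse band 7qF3 is syntenic with human 16p11.2, and the deletion removes 1 of the 2 copies of a block of genes there. The 16 cerebellum libraries, of 48 in the series, were chosen by their labels and fall into 8 deletion libraries and 8 wild-type libraries. Each group held 4 males and 4 females of the C57BL/6N:129Sv strain, and the groups are called the deletion and wild-type groups from here on. The libraries were made from total RNA with a stranded mRNA kit. No other allele, driver or treatment is named in the labels. Their age entry holds a date, which was 1 date for all males and another for all females, and any effect of sex therefore cannot be told apart from one of date. Each library is named by its animal, D801 to D804 and W805 to W808 being males and the others females. A number tied the libraries of 1 animal across tissues, and nothing in the labels says whether litters were shared.

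A mouse that has lost 1 copy of a gene usually makes less of its transcript, because each copy is transcribed on its own. In people, loss of the 16p11.2 block is among the recurrent copy number changes linked to autism, developmental delay and raised body weight. The cerebellum is built mainly from small glutamatergic granule cells, which feed large inhibitory Purkinje cells, with Bergmann glia, interneurons, the neurons of the deep nuclei and oligodendrocytes around them. In RNA from whole tissue, fewer cells of a type and less RNA per cell cannot be told apart.

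The 8 deletion libraries held between 29463306 and 34311082 gene counts and the 8 wild-type libraries between 29331296 and 34417630. Levels are given in CPM, the counts of a gene per 1e6 counts of the library, with library sizes scaled by trimmed mean of M-values (TMM). Markers of granule and Purkinje cells were abundant in all but 1 library. In the deletion library of animal D809, Gabra6, the granule cell subunit of the GABA-A receptor, stood at 61.7 CPM, against 210.7 CPM in W813 and at least 361 CPM in the other 14 libraries. Pcp2, a Purkinje cell gene, was at 133 CPM in D809 and at 212 to 650 CPM elsewhere. The mean log2 CPM of the 20 granule cell markers was 5.90 in D809 and 7.06 in the wild-type library of W813, which was the next lowest. Slc6a5, the glycine transporter of inhibitory neurons that is plentiful in brainstem, was at 239 CPM in D809 and at 17.9 to 88.0 CPM in the others. It is also on the list of molecular layer and Golgi interneurons. The brainstem and midbrain list had a mean log2 CPM of 2.73 in D809, 2.24 in D801 and 2.15 in W807. Barhl2 of that list went the other way, at 8.95 CPM in D809 and 22.8 CPM or more elsewhere. The homeobox gene Hoxa5, a marker of hindbrain and spinal cord, was at 37.7 CPM in D809. It reached 11.6 CPM in D804 and 9.15 CPM in W807, and was under 1 CPM in every other library. The main results are therefore given also without D809 and W813.

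**Figure D1:**
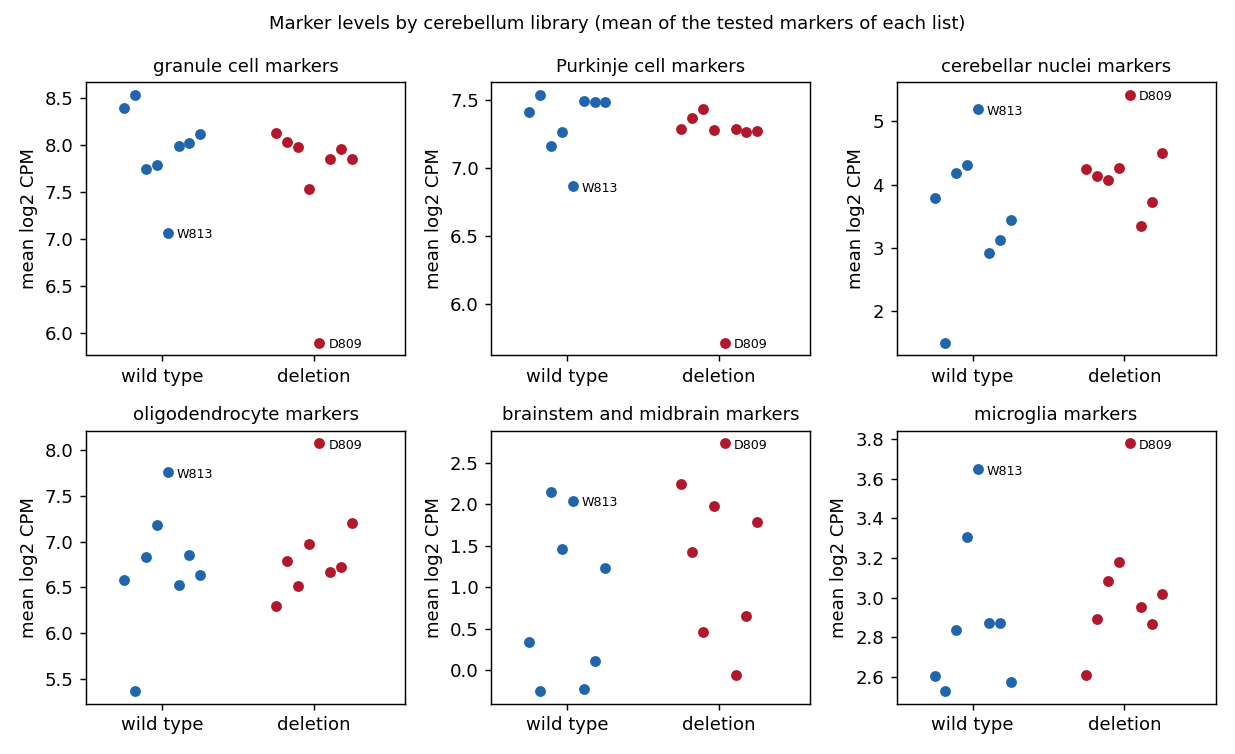
Mean log2 CPM of the tested markers of 6 cell type or region lists in each of the 8 wild-type (blue) and 8 deletion (red) cerebellum libraries, 1 point a library. D809 lies at 5.90 on the granule cell list and at 5.71 on the Purkinje cell list, under every other library, and W813 is the next lowest on both.

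Of 5 library measures, only the percentage of counts on mitochondrially encoded genes differed between the genotypes. It was 3.60% ± 0.35 (SD, n = 8) in the deletion group and 2.93% ± 0.46 (SD, n = 8) in wild type (2-sided exact permutation test, p = 0.00559, adjusted p = 0.028 over the 5 measures). Deletion libraries ranged from 3.06% to 4.16% and wild-type libraries from 2.21% to 3.60%, so the groups overlapped. Total counts, genes detected, the spike-in share and a score of transcript length did not differ by the same test (adjusted p between 0.605 and 0.897). The length score split the libraries into 6 with positive values of 0.31 to 0.54 (D801, D802, D812, W805, W806 and W816) and 10 with negative values of −0.44 to −0.14. Each genotype had 3 libraries in the first set and 5 in the second.

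The block of deleted genes was taken to run from the start of Slx1b to the end of Mylpf on chromosome 7 of GRCm38 (126689468 to 127214298, 524.8 kb). These limits are gene positions of the GENCODE annotation, and the breakpoints of the deletion were not determined here. A list of 33 genes described the block, 27 core genes and 6 at the edges, of which Sept1 starts just past Mylpf. Of these, 29 passed the filter on low counts. All 29 had lower mean expression in the deletion group than in wild type, with log2 fold changes between −1.38 and −0.34. The median was −1.02, while the median over all 16672 genes tested was −0.00498. edgeR's quasi-likelihood test with sex in the model called 20 of the 29 lower at an adjusted p under 0.05, 17 of 23 core genes and 3 of 6 edge genes, and called none higher. Over all genes tested, 0.126% were called lower. The 20 called genes had a median log2 fold change of −1.07, a level of 47.6% of wild type. A halved dose is −1 on this scale, and the 95% interval of all 20 held that value. In all, 28 of the 29 intervals held −1, the exception being that of Sept1, and 27 of the 29 lay wholly under 0. For 15 of the 29, every deletion library was below every wild-type library, a separation seen in 0.096% of all tested genes.

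The listed genes together took up 0.148% to 0.242% of the gene counts in the deletion libraries and 0.282% to 0.485% in wild type. Every deletion library thus lay under every wild-type library in this share. D801 (0.148%) and D812 (0.168%) were the lowest deletion libraries and W805 (0.282%) the lowest in wild type, and all 3 belong to the 6 of positive length score. Within those 6 libraries the mean log2 level of the interval genes, set against the wild-type mean, was −1.39 to −0.93 in the deletion group and −0.46 to −0.17 in wild type. Within the other 10 it was −0.88 to −0.79 in the deletion group and −0.00 to 0.41 in wild type. The genotypes did not overlap in either set, which follows from their separation over all 16 libraries (at most −0.79 against at least −0.46). Tested within the 6, 23 of the 29 genes had lower values at an unadjusted p under 0.05, as had 2.1% of all genes, and none passed after adjustment. Within the 10, 17 passed, against 0.101% of all genes.

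**Figure D2:**
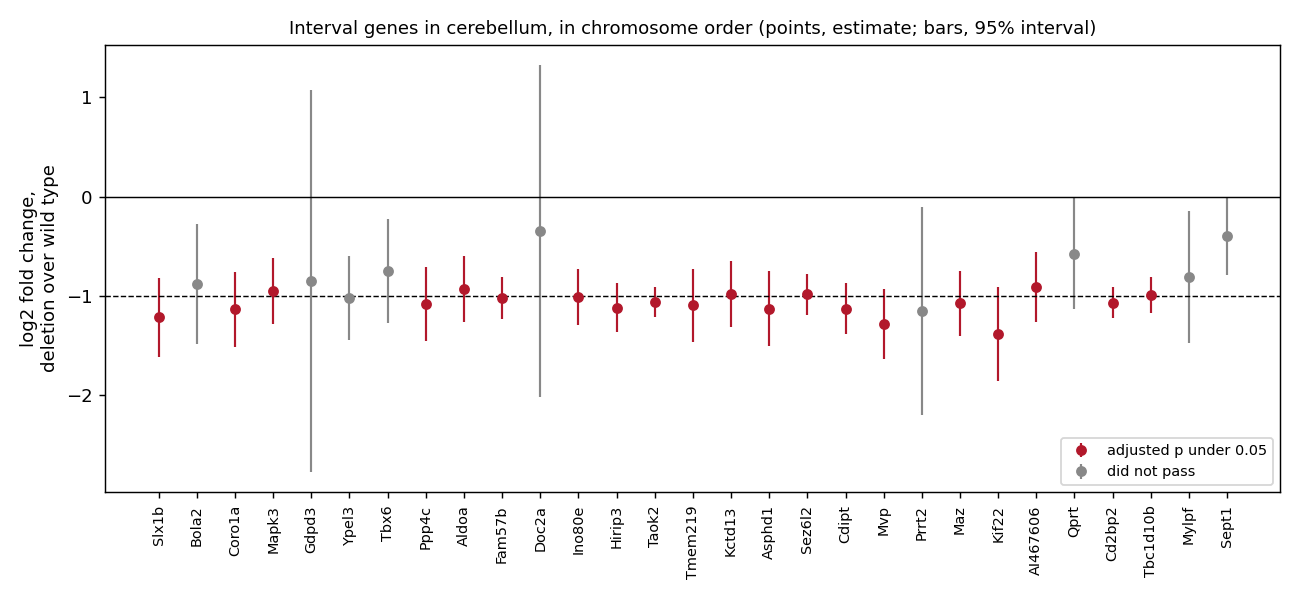
Log2 fold change, deletion over wild type, of the 29 tested interval genes in chromosome order, with 95% intervals from edgeR. The 20 genes in red passed at an adjusted p under 0.05 and lie between −1.38 and −0.91, around the dashed line at −1, and the wide bars of Gdpd3 and Doc2a reach past 0.

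Without D809 and W813 the test called 16 of the 29 lower, where 0.108% of all genes were called lower, and the median was −1.03. Coro1a, Ppp4c, Asphd1 and AI467606 were the 4 that no longer passed. With the mitochondrial share as a covariate, which differs between the genotypes, 7 of the 29 passed (0.042% of all genes) and the median was −0.65. Without D810, D811 or W807 in turn, 18 passed, and AI467606 was lost in most of the fits that left out 1 library. DESeq2 called 21 of the 29 lower, against 0.144% of all genes by that tool.

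Taok2, which encodes a kinase of the MAP kinase cascade that acts on microtubules and dendrite growth, and Cd2bp2, which encodes a spliceosome-associated protein, had the smallest p-values among the interval genes. Their promoters are shown because the fits of these 2 genes gave those p-values. Both sequences are from RefSeq on GRCm38.p6, on the minus strand, 250 bases before to 50 bases after the annotated start, at chr7:126884918-126885217 for Taok2 and chr7:127196028-127196327 for Cd2bp2. Capitals mark matches on either strand to 5 searched motifs: CATGTG (an E-box), TGANTCA (AP-1), TGACGTCA (a cyclic AMP response element), TATAAA and GGGCGG (a GC box). No 2 matches overlapped.
Taok2: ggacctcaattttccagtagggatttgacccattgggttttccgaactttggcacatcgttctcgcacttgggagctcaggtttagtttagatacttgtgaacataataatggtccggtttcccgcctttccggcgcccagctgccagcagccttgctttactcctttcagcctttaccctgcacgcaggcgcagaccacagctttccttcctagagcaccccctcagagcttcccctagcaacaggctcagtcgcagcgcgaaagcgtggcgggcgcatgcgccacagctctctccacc
Cd2bp2: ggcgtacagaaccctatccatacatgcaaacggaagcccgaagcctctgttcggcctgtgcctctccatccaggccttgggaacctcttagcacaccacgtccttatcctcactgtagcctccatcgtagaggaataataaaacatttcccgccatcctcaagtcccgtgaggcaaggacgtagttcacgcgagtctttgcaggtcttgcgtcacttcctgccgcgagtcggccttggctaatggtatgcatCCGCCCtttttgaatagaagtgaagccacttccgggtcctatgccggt
Taok2's window held none of the 5 motifs and that of Cd2bp2 held 1 GC box, a motif present in 35.66% of the 32851 promoters of this length. The GC content was 56.0% in the former and 54.3% in the latter. Promoters of 24 of the 33 listed genes were matched by symbol, and they had a median GC content of 60.8%, against 52.7% over all promoters.

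All 4 called signalling genes of the block had log2 fold changes between −1.08 and −0.95. Taok2 (ENSMUSG00000059981, 126865678 to 126884703) ranged from 62.5 to 78.4 CPM in the deletion group with a median of 74.5 CPM, and from 133 to 186 CPM with a median of 148 CPM in wild type. The groups were well separated and the log2 fold change was −1.06 ± 0.07 (SE, adjusted p = 7.76e-07). The ERK1 kinase gene, Mapk3, spanned 46.1 to 99.6 CPM around a median of 72.2 CPM with the deletion and 93.3 to 189 CPM around 138 CPM without it. Here the highest deletion library, D809, reached above the lowest wild-type library, W805, and the log2 fold change was −0.95 ± 0.16 (adjusted p = 0.014). Ppp4c, the catalytic subunit of protein phosphatase 4, stood at 19.9 to 40.0 CPM in deletion libraries and at 40.8 to 84.4 CPM in wild type, with a log2 fold change of −1.08 ± 0.18 (adjusted p = 0.0133). Kctd13, an adaptor that brings RhoA to a cullin ubiquitin ligase, had medians of 23.7 and 46.8 CPM and fell by 0.98 ± 0.16 (adjusted p = 0.0113), with D809 at 34.0 CPM just above W805 at 32.1 CPM.

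Genes of chromatin, transcription and splicing were also lower. Cd2bp2 (ENSMUSG00000042502) ranged from 48.3 to 62.3 CPM, median 55.5 CPM, in the deletion group and from 106 to 127 CPM, median 116 CPM, in wild type. Its log2 fold change was −1.07 ± 0.07 (adjusted p = 7.76e-07). Hirip3, which encodes a histone chaperone partner, had 16.6 to 26.9 CPM against 42.9 to 57.4 CPM (−1.12 ± 0.12, adjusted p = 0.000121). Ino80e, a subunit of the INO80 chromatin remodeller, had 17.5 to 29.1 CPM against 36.1 to 59.7 CPM (−1.01 ± 0.13, adjusted p = 0.00159). Maz, a zinc finger transcription factor, had 94.8 to 172 CPM against 207 to 347 CPM (−1.07 ± 0.15, adjusted p = 0.00458). In none of these 4 genes did a deletion library reach a wild-type library.

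Genes of metabolism and membrane lipids followed. Aldoa, the glycolytic enzyme aldolase A, ranged from 607 to 1218 CPM with a median of 942 CPM in the deletion group and from 1040 to 2220 CPM with a median of 1854 CPM in wild type. Its highest deletion library was D809 and its lowest wild-type library W805, which lay below D809 and D804, so the groups overlapped, and the log2 fold change was −0.93 ± 0.16 (adjusted p = 0.0181). Cdipt, which makes phosphatidylinositol, had 54.8 to 91.8 CPM against 134 to 202 CPM (−1.13 ± 0.12, adjusted p = 0.000184). Fam57b, linked to ceramide synthesis, had 60.2 to 85.9 CPM against 121 to 173 CPM (−1.02 ± 0.10, adjusted p = 6.09e-05). Aldoa and Fam57b overlap in the annotation, and how the deposited counts treat strand is not given in the sources used here, so their counts are uncertain where the genes overlap. The same holds for Doc2a with Ino80e and for Slx1b with Bola2.

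Among genes of the cell surface and trafficking, Sez6l2 encodes a seizure-related membrane protein of neurons. It ranged from 213 to 345 CPM, median 237 CPM, with the deletion and from 451 to 585 CPM, median 481 CPM, without it, a log2 fold change of −0.98 ± 0.10 (adjusted p = 7.88e-05). D809 was the library at 345 CPM, and the other 7 deletion libraries lay between 213 and 263 CPM. Tbc1d10b, a Rab GTPase-activating protein, had 36.9 to 56.3 CPM against 73.2 to 97.6 CPM (−0.99 ± 0.09, adjusted p = 1.72e-05). Coro1a, an actin-binding coronin best known from leukocytes, had 24.9 to 50.2 CPM against 49.9 to 119 CPM (−1.13 ± 0.18, adjusted p = 0.0113), the highest deletion library, D803, passing the lowest wild-type library, W805.

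**Figure D3:**
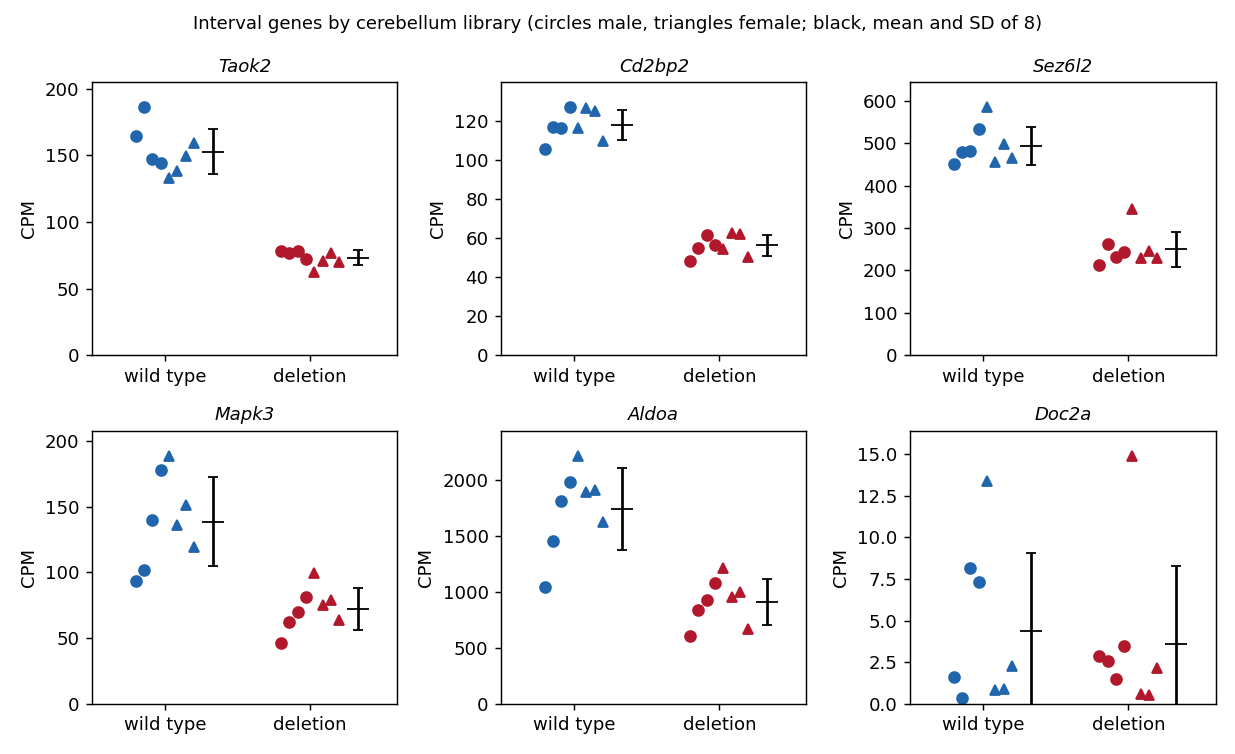
CPM of 6 interval genes in each cerebellum library, wild type in blue and deletion in red, circles for males and triangles for females, with the mean and SD of 8 in black. Taok2, Cd2bp2 and Sez6l2 separate the genotypes, Mapk3 overlaps through 1 deletion library and Aldoa through 2, and Doc2a spans 0.537 to 14.9 CPM within the deletion group.

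The other called members had lower levels. Mvp, the major protein of vault particles, had a log2 fold change of −1.28 ± 0.17 (12.3 to 23.3 against 30.1 to 54.0 CPM, adjusted p = 0.00159). Slx1b, an edge gene and the nuclease subunit of a structure-specific endonuclease, fell by 1.21 ± 0.19 (10.3 to 22.2 against 24.7 to 48.2 CPM, adjusted p = 0.0102). Kif22, a chromosome-binding kinesin, fell by 1.38 ± 0.22 from a wild-type median of 2.95 CPM (adjusted p = 0.013). Tmem219 (−1.10 ± 0.17, adjusted p = 0.0113), Asphd1 (−1.13 ± 0.18, adjusted p = 0.0113) and the predicted gene AI467606 (−0.91 ± 0.17, adjusted p = 0.0384) completed the 20. AI467606 lay near the threshold, at 0.596 to 0.979 CPM against 0.932 to 2.22 CPM.

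The 9 tested listed genes that did not pass fell into 3 kinds. Ypel3, of the yippee-like family tied to growth arrest, came nearest, at 88.3 to 189 CPM, median 177 CPM, in the deletion group and 167 to 418 CPM, median 320 CPM, in wild type. Its log2 fold change of −1.02 ± 0.20 had an adjusted p of 0.0766, which DESeq2 and the fits with a length covariate took under 0.05. W805, at 167 CPM, was the 1 wild-type library among the deletion values of Ypel3. Bola2, an iron-sulfur cluster protein gene, had a log2 fold change of −0.88 ± 0.28, with 7.41 to 35.7 CPM in the deletion group and 15.1 to 59.0 CPM in wild type. D809 was its highest deletion library, and W805, W806, W807 and W816 lay below it.

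Doc2a and Gdpd3 varied widely between libraries of 1 genotype. Doc2a, a calcium sensor of spontaneous transmitter release, was at 14.9 CPM in D809, at 3.45 CPM or less in the other 7 deletion libraries and at 13.4, 8.17 and 7.34 CPM in W813, W807 and W808. The log2 fold change was −0.34 ± 0.79, with a 95% interval of −2.01 to 1.32. It was −1.30 without D809 and 0.35 without W813. Gdpd3, a lysophospholipase D gene, was at 27.9 CPM in D810 and 8.84 CPM in D802 and at no more than 1.58 CPM in the other 6 deletion libraries. In wild type it was at 24.8 CPM in W813, 23.0 CPM in W808 and 13.4 CPM in W807 and at 2.80 CPM or less in the other 5. The value of −0.85 ± 0.91 carried an interval of −2.77 to 1.07. Intervals of this width hold both no change and a halving.

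Tbx6 (−0.75 ± 0.25), Prrt2 (−1.15 ± 0.49), Qprt (−0.58 ± 0.26), Mylpf (−0.81 ± 0.31) and Sept1 (−0.40 ± 0.19) made up the last kind, each with an adjusted p of 0.9997 and a low level. Tbx6, a mesoderm T-box factor, had a median of 3.27 CPM in wild type, and Mylpf, a light chain of fast muscle myosin, 1.27 CPM. Prrt2, the gene of paroxysmal kinesigenic dyskinesia, was counted at 0.161 to 1.76 CPM in wild type and 0.0676 to 0.522 CPM in the deletion group. The predicted gene Gm42742 shares its span, and was counted at 1.68 to 6.14 CPM and 0.281 to 2.06 CPM respectively. The counts of both, and of Pagr1a, are uncertain where the genes overlap. Sept1, which begins outside the interval, had a 95% interval of −0.79 to −0.004, which does not hold −1.

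Of the 4 listed genes left out by the filter, Zg16 had no count in any library, and 4930451I11Rik, Pagr1a and Spn had at most 0.123, 0.133 and 0.247 CPM. Another 22 annotated transcripts inside the interval were not on the list. Of these, 12 had no counts in any of the 16 libraries, 6 had too few to test and 4 were tested. Gm9967, a processed transcript antisense to Gdpd3, fell from a wild-type range of 1.75 to 2.97 CPM to 0.326 to 1.52 CPM in the deletion group (log2 fold change −1.38 ± 0.25, adjusted p = 0.0319), with no overlap. Its values did not show the swings of Gdpd3. Gm42742 (−1.36 ± 0.32, adjusted p = 0.313), Gm31749, antisense to Kif22 (−1.11 ± 0.34, adjusted p = 0.9997), and Gm21984 (−0.78 ± 0.31, adjusted p = 0.9997) had lower values that did not pass.

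No flanking gene within 5 Mb on either side of the block was called in the main edgeR fit. Gm6939, a gene of low counts that overlaps the start of the interval, had a mean of 0.334 CPM in the deletion group and 0.667 CPM in wild type (−0.997 ± 0.649, adjusted p = 0.9997). The 4 tested genes that end less than 100 kb before Slx1b all had negative values, with a median log2 fold change of −0.38. Among them, Sgf29, a subunit of histone acetylation complexes, had 11.7 to 21.4 CPM in the deletion group and 16.5 to 29.2 CPM in wild type (−0.49 ± 0.15, adjusted p = 0.9997), and it passed with the length score as a covariate (−0.50, adjusted p = 0.00882). Sult1a1, a sulfotransferase gene and the nearest of the 4 to Slx1b, had a value of −0.48 ± 0.27. From 100 to 500 kb before the block the median of 13 genes was −0.11. After Mylpf, the 6 genes within 100 kb had a median of 0.08, and the nearest past Sept1, Zfp553, had −0.03 ± 0.08. Inpp5f, between 1000 and 2000 kb after Mylpf, had a positive value of 0.28. With edgeR it passed as higher with 1 surrogate variable (0.33, adjusted p = 0.00201) and with the length score as a covariate (0.29, adjusted p = 0.0479). Over the 1237 tested genes of chromosome 7 outside the interval, 2.34% had an unadjusted p under 0.05, against 1.89% of all 16639 tested genes outside the interval.

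**Figure D4:**
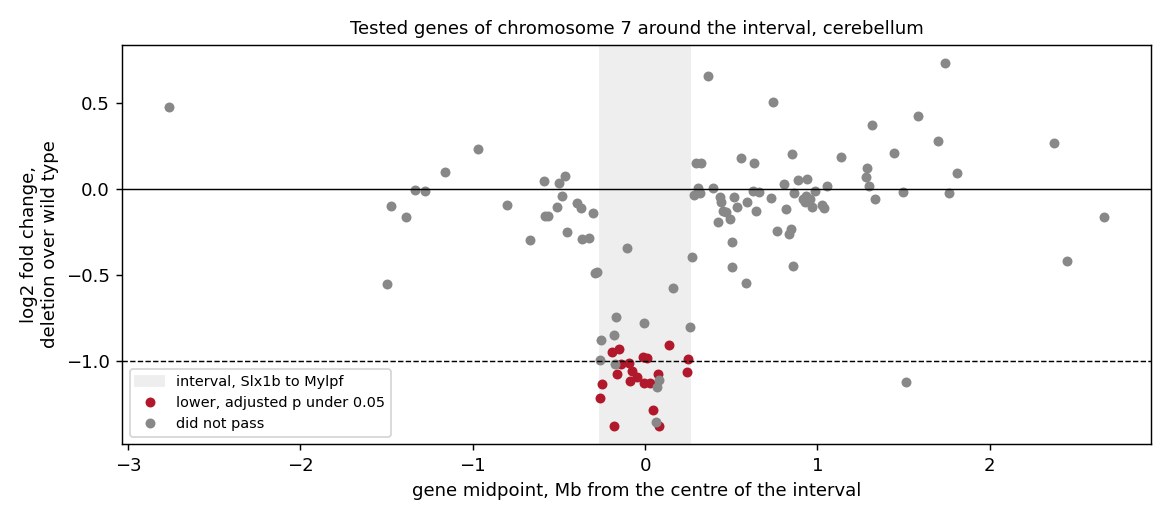
Log2 fold change, deletion over wild type, of the tested genes of chromosome 7 by distance of the gene's midpoint from the centre of the interval in Mb, with the interval shaded. Genes called lower (red) lie inside the shading near the dashed line at −1, and most genes outside it lie around 0. Exceptions include Gm6939 at −0.997 on the edge of the shading and Gm32816 at −1.13, both of low counts. Just before the shading, Sgf29 lies at −0.49 and Sult1a1 at −0.48, with wild-type means of 22.75 and 12.4 CPM. After the shading, Itgal lies at 0.66.

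Split by sex, which here is also the split by date, the 4 against 4 libraries were fitted apart. All 29 listed genes tested had negative values in males (median −0.98), as did 27 of 28 in females (median −1.05), where Doc2a was at 0.060. At an unadjusted p under 0.05, 22 of 29 were lower in males (0.8% of all genes) and 22 of 28 in females (0.405% of all genes). None passed after adjustment over all genes within either sex, the smallest adjusted p being 0.0531 in males and 0.0529 in females. Taok2 had −1.07 ± 0.12 in males and −1.05 ± 0.12 in females. The term for a different deletion effect in males and females called 0 of 16672 genes (0%) with edgeR, and DESeq2 called 0 too. With edgeR 93 genes (0.558%) had an unadjusted p under 0.05, fewer than chance alone gives at that threshold. The test was thus conservative, and 0 calls do not show that the effect was equal in the sexes. No listed gene was among the 93.

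In cortex and striatum of the same animals the interval genes were also measured, and the difference between tissues was tested in 1 model of all 48 libraries. That test called 0 of 18531 genes (0%) between cerebellum and cortex and 0 of 18531 (0%) between cerebellum and striatum, and DESeq2 called 0 in both. With edgeR 234 genes (1.26%) and 313 genes (1.69%) had an unadjusted p under 0.05, fewer than chance alone gives at that threshold. The tests were thus conservative, and 0 calls do not show that the effects were equal across tissues. No listed interval gene had an unadjusted p under 0.05 in either comparison. With the animal as a replicate block in edgeR, Qprt had an unadjusted p of 0.03 against striatum and did not pass after adjustment. No other listed gene was under 0.05 in either comparison with that block. In the fit without the block the deletion effect on Qprt was 0.83 less negative in cerebellum than in striatum (unadjusted p = 0.0745). The median difference over the listed genes was 0.03 against cortex and −0.03 against striatum. Taok2, for example, had −0.96 ± 0.06 in cortex and −1.04 ± 0.07 in striatum. Doc2a gave the largest positive differences, 0.87 ± 0.72 and 0.85 ± 0.72, which are close to their standard errors. It stood at −1.14 ± 0.20 in cortex and −1.15 ± 0.31 in striatum.

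Outside the interval 2 of 16639 tested genes rose and none fell. Higher calls made up 0.012% of all 16672 genes tested. At an unadjusted p under 0.05 there were 143 higher (0.858% of all genes) and 172 lower outside the block, out of 203 lower in all (1.22%). Together 1.89% of the outside genes were under that threshold, fewer than chance alone gives, so a gene not called may still differ. DESeq2 called 8 outside genes higher (0.048%) and 1 lower. Both genes called by edgeR, Tyr and Apold1, are shown with their promoters as the only outside genes that passed.

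Tyr encodes tyrosinase, the enzyme of melanin synthesis, and is known from pigment cells. Its promoter lies on the minus strand at chr7:87493463-87493762, some distance from the deleted block on the same chromosome, and that of Apold1 on the plus strand at chr6:134981751-134982050. Both are from RefSeq on GRCm38.p6 and use the motif capitals given above.
Tyr: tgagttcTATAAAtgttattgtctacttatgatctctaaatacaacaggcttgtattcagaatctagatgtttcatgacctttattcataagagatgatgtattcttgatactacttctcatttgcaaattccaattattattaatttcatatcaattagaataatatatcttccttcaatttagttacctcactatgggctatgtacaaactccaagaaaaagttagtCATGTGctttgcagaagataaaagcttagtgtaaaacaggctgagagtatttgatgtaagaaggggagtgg
Apold1: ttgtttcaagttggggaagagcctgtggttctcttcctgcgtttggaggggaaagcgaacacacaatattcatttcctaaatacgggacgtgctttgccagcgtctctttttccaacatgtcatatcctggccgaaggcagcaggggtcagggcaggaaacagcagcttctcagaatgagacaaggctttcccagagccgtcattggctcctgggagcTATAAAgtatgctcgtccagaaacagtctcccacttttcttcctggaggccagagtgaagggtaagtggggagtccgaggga
The Tyr window had a GC content of 31.0% and held a CATGTG that starts 21 bases before the annotated start, a motif found in 14.15% of all promoters, and a TATAAA. The Apold1 window had a GC content of 51.7% and a TATAAA that starts 32 bases before the start, as in 13.62% of promoters at any position, and none of the other 4 motifs.

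In the deletion group Tyr (ENSMUSG00000004651, chromosome 7, 87424771 to 87493512) ranged from 7.83 to 18.6 CPM with a median of 15.5 CPM. In wild type, 6 libraries had no count and W813 and W816 had 1 each. The summed counts were 3746 in the deletion group and 2 in wild type, a ratio of 1870 after scaling for library size with an exact 95% interval of 517 to 15448, which covers counting error only. D809 was the lowest deletion library and every one of the 8 lay above all of wild type (adjusted p = 4.32e-10). Tyr was called in all 35 alternative fits, with adjusted p between 1.02e-18 and 0.0164 outside DESeq2, where it was 9.56e-42. In cortex and striatum the log2 fold changes were 7.02 ± 0.51 and 7.05 ± 0.34. Those of cerebellum were higher by 3.31 ± 0.79 and 3.26 ± 0.79, with unadjusted p-values of 0.000136 and 0.000164 that did not pass (adjusted p = 0.99999 against cortex and 0.999997 against striatum). The size of these differences rests on wild-type cerebellum counts of 0 or 1 a library and is therefore uncertain.

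The agouti gene a, whose product sets hair pigment, is the other coat colour gene with separated groups. Its span on chromosome 2 (154791402 to 155051012) covers other genes, including Raly and Eif2s2, so its counts are uncertain. It was at 0.583 to 1.73 CPM in the deletion group and at 0 to 0.344 CPM in wild type, from 246 and 28 summed counts (log2 fold change 3.12 ± 0.64, adjusted p = 0.119). Agouti passed in 9 of the 34 alternative fits that gave it a value. Among them were DESeq2 (adjusted p = 0.000873) and the edgeR fit without W813 (adjusted p = 0.0327). With edgeR in cortex it stood at 6.10 ± 0.52 and was called (adjusted p = 1.09e-05). In striatum it stood at 3.06 ± 0.72 and was not called (adjusted p = 0.37). The other 6 tested genes of the pigmentation list were not called, nor did any reach an unadjusted p under 0.05. Tyrosinase and agouti sequences are used in some gene targeting vectors as visible markers of coat colour, and whether this allele carries them is not given in the sources used here.

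Apold1, an early-response gene of the endothelium, rose in the deletion group. It ranged from 3.83 to 9.39 CPM, median 6.41 CPM, with the deletion and from 1.23 to 3.19 CPM, median 2.18 CPM, in wild type. All 8 deletion libraries were above all 8 wild-type libraries, as held for 0.024% of tested genes, which are Tyr, a, Apold1 and Kctd21. The log2 fold change was 1.54 ± 0.23 (adjusted p = 0.00661). It was 1.97 ± 0.26 in the males and 1.11 ± 0.32 in the females, neither passing alone (adjusted p = 0.0864 and 0.9998), and the difference of 0.86 ± 0.40 did not pass after adjustment (adjusted p = 0.9999). With the mitochondrial share as a covariate the value was 1.21 (adjusted p = 0.129), and without D809 and W813 it was 1.67 (adjusted p = 0.00577). In cortex and striatum Apold1 stood at 0.88 ± 0.21 and 0.74 ± 0.31, neither called. The 20 endothelial markers had a median log2 fold change of 0.08 with none called and none at an unadjusted p under 0.05, and their mean log2 CPM ranged from 4.92 to 5.42 in the deletion group and 4.78 to 5.21 in wild type. Their part in the Apold1 result was not tested.

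Gdf11, a ligand of the TGF-beta superfamily, was the outside gene with the smallest p among those with lower values. It ranged from 18.4 to 34.1 CPM, median 22.5 CPM, in the deletion group and from 29.3 to 35.8 CPM, median 33.04 CPM, in wild type. D809 alone, at 34.1 CPM, lay among the wild-type values, and the other 7 deletion libraries had 18.4 to 24.9 CPM. With edgeR the log2 fold change over all 16 libraries was −0.50 ± 0.11 and did not pass (adjusted p = 0.285). DESeq2 called Gdf11 lower over the same 16 libraries (−0.50, adjusted p = 0.0142). Without D809 the edgeR value was −0.61 ± 0.08 and passed (adjusted p = 0.00189). It also passed with edgeR without D809 and W813 (−0.61, adjusted p = 0.00493) and with the granule cell marker level as a covariate (−0.61, adjusted p = 0.00283). In cortex it stood at −0.10 ± 0.11 and in striatum at −0.01 ± 0.12, and the differences from cerebellum, −0.40 ± 0.16 and −0.50 ± 0.16, had unadjusted p-values of 0.0196 and 0.00369 and did not pass.

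Other outside genes of smallest p did not pass with edgeR. DESeq2 called Kctd21 (adjusted p = 0.00334), Gimap6 (0.00263), Gm3248 (0.0403), mt-Cytb (0.043) and mt-Nd4 (0.0292) higher. In the fit of all 48 libraries edgeR called Kctd21 (adjusted p = 0.00727). Kctd21, a cullin adaptor gene on chromosome 7, had 24.5 to 31.4 CPM against 18.1 to 24.0 CPM (0.37 ± 0.08, adjusted p = 0.222). Npr1, the receptor of atrial natriuretic peptide, had 10.2 to 20.7 CPM against 16.5 to 37.3 CPM (−0.67 ± 0.17, adjusted p = 0.646). Gimap6, a GTPase gene of lymphocytes and vessels, had 0.53 ± 0.12 (adjusted p = 0.309), and Gm3248 0.77 ± 0.18 (adjusted p = 0.392). With positive values of smaller support came Syt6 (0.72), Ccn1 (0.62), Gm3558 (0.85), mt-Cytb (0.26) and Gpr3 (0.70). With negative values came Rrad (−0.61), Ostn (−1.80), Emilin3 (−0.97), 2310015A10Rik (−0.30), Itfg2 (−0.29), Nrde2 (−0.36) and Pars2 (−0.31). All 12 of these had an adjusted p of 0.9997.

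**Figure D5:**
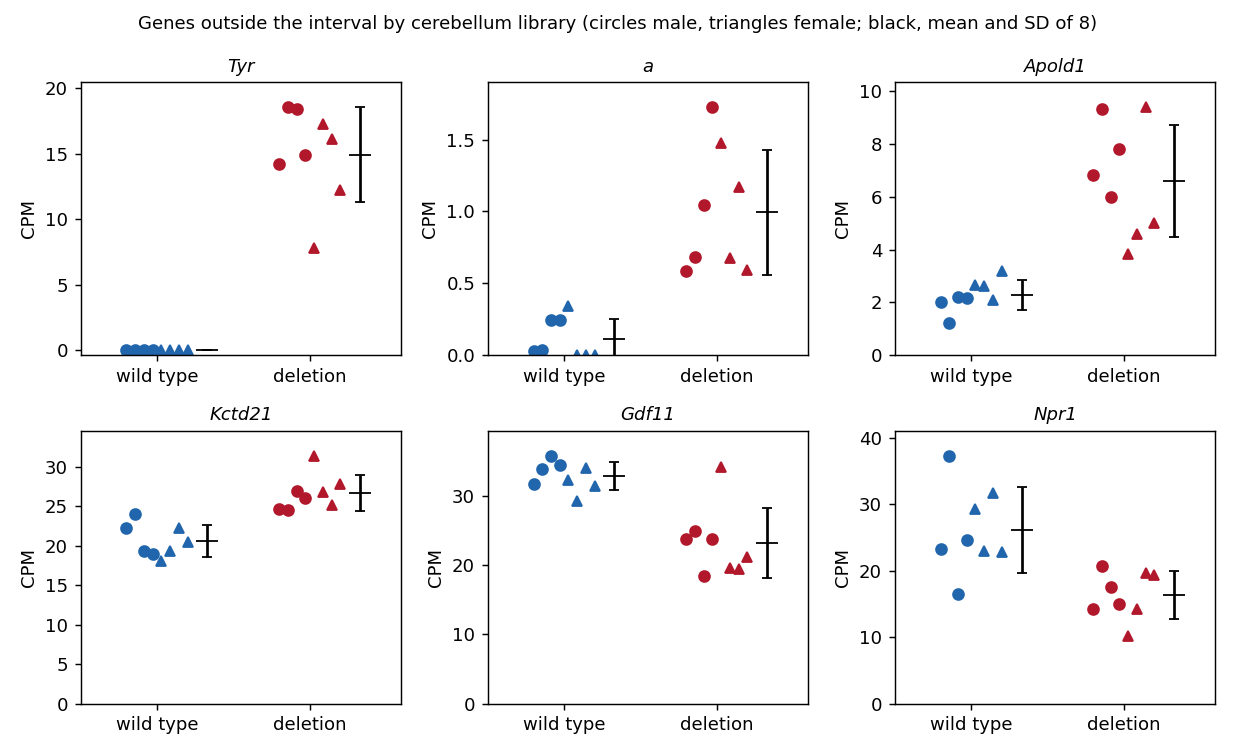
CPM of 6 genes outside the interval in each cerebellum library, wild type in blue and deletion in red, circles for males and triangles for females, with the mean and SD of 8 in black. Tyr, a, Apold1 and Kctd21 separate the genotypes, Tyr and Apold1 passed the test, and in Gdf11 the deletion library D809 sits at 34.1 CPM among the wild-type libraries.

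The cell type lists, 16 in number, held no called gene. The granule cell list had negative values for all 20 members, with a median of −0.24 and no member at an unadjusted p under 0.05. D809 moved with that result: the list's mean log2 CPM was 5.90 in it and 7.53 to 8.12 in the other 7 deletion libraries, against 7.06 to 8.53 in wild type. Without D809 the median was −0.10, and without D809 and W813 it was −0.21. The Purkinje cell list had 23 of 24 negative values and a median of −0.20, which was −0.08 without D809. Its Calb1, the calcium buffer calbindin, was at 177 CPM in D809, 538 CPM in W813 and 746 CPM or more elsewhere. In the opposite direction, 19 of 20 oligodendrocyte markers and 19 of 20 microglia markers had positive values, with medians of 0.13 and 0.14, which were −0.06 and 0.03 without D809 and 0.09 and 0.14 without D809 and W813. The deep nuclei list had 9 of 11 positive values and a median of 0.45, which was 0.17 without D809 and 0.54 (10 of 11 positive) without D809 and W813. Brainstem and midbrain markers had 8 of 9 positive values and a median of 0.66, which was 0.16 without D809 and 0.41 without both. The wild-type library W806 was the lowest of all 16 on the oligodendrocyte and deep nuclei lists (mean log2 CPM 5.37 and 1.51). The other wild-type libraries had at least 6.53 and 2.93, and list medians without W806 were not computed. Nefl, Nefm and Nefh, the neurofilament genes of the deep nuclei list, were at 1768, 1674 and 1202 CPM in D809, and at no more than 644, 639 and 516 CPM elsewhere. Blood genes had a median of 0.95 over 6 members, with haemoglobin Hbb-bs at 371 CPM in D804 and 26.4 to 124 CPM in the rest.

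Among pathways tied to deleted genes, none had a called member. The 26 genes of the ERK cascade around Mapk3 split evenly, 13 with positive and 13 with negative values, and had a median of −0.01. The cullin-3 and RhoA list around Kctd13 had 9 of 13 positive values and a median of 0.02, with Arhgef2, an exchange factor for RhoA, at −0.32 ± 0.12 (adjusted p = 0.9997). Glycolysis genes other than Aldoa had 12 of 15 positive values and a median of 0.10. Genes of phosphatidylinositol and lipid synthesis had a median of −0.04, those of synaptic release −0.04 and those of paroxysmal movement disorders −0.08.

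Activity and stress genes gave positive values that did not pass with edgeR in cerebellum. Fos, the immediate early gene used as a marker of recent activity, ranged from 11.6 to 83.6 CPM, median 30.2 CPM, in the deletion group and from 7.17 to 35.3 CPM, median 24.6 CPM, in wild type (0.90 ± 0.40, adjusted p = 0.9997). D801, D802 and D811 were the 3 deletion libraries above all of wild type. In striatum Fos stood at 1.04 ± 0.16 and was called with edgeR (adjusted p = 0.012). In cortex it stood at 0.68 ± 0.36 and was not called. The difference of cerebellum from striatum, −0.15 ± 0.47, did not pass. Of 25 tested immediate early genes, 17 had positive values (median 0.12), and 3 of them, Fosl2, Sik1 and Fos, had an unadjusted p under 0.05, against 0.858% of all genes that were higher at that threshold. The heat shock list had 19 of 20 positive values and a median of 0.21, with 6 higher at an unadjusted p under 0.05, where 0.858% of all genes were, led by the co-chaperone Bag3 (0.43 ± 0.15, adjusted p = 0.9997). All 11 tested genes of the mitochondrial genome had positive values with a median of 0.30, beside their higher share of counts given above. DESeq2 called mt-Cytb and mt-Nd4 of these higher. Among nuclear genes of oxidative phosphorylation 43 of 44 had positive values. Their median was 0.08, which was 0.01 without D809 and 0.07 without D809 and W813. Chromatin genes linked to autism had 21 of 22 negative values and a median of −0.11, which was −0.03 without D809 and −0.11 without D809 and W813. Over all genes tested 51.5% of values were negative, and the members of a list share libraries, so these counts are descriptions.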

How the data were processed

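Polyadenylated RNA of 16 cerebellum libraries was sequenced. The deposited table holds whole-number gene counts, which the authors left without normalization. STAR 2.4.2a, SAMtools, Picard and FastQC 0.10.1 are the tools, and GRCm38 and mm8 the builds, named per the submitters' processing notes. For the counter, its annotation and its strand setting the answer is: not given in the sources used here. Spike-in rows (92) were dropped, leaving 47069 genes, of which 46574 identifiers matched the GENCODE vM21 annotation of GRCm38. Counts were tested in R 4.3.3 with edgeR 4.0.16 (TMM scaling, filterByExpr by genotype, robust quasi-likelihood fit on sex and genotype, Benjamini-Hochberg adjustment over 16672 genes, threshold 0.05). Standard errors are the log2 fold change over the root of F, and intervals cover 95%. Alternatives used DESeq2 1.42.0, limma 3.58.1 and sva 3.50.0, other scalings, filters and covariates, each sex alone and each library left out. The test was also run on counts simulated gene by gene, with no shared differences between libraries in dissection or length score. Its behaviour under such differences was not checked. Libraries are separate animals by their labels.

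Genes named were every listed interval gene, every tested gene inside the interval by position, called outside genes of at least 1 CPM filled up to 10 in each direction by smallest p, list members of smallest p, and Tyr, a and Fos. Hoxa5, Slc6a5, Gabra6, Pcp2, Calb1, Sult1a1, Zfp553, Gm6939, Gm32816, Inpp5f, Itgal and Xlr4a were named after their values were seen. The gene lists (41 lists, 734 genes) and the comparison itself were chosen with earlier results of these data known. Differences between tissues came from 1 fit of 48 libraries. Whether animals pair the tissues was checked on deviations from group means, and the median correlation of the same animal was 0.43 between cerebellum and cortex and 0.24 between cerebellum and striatum, against 0.00 and −0.04 for other animals. The number comes from the labels. Promoter sequences are RefSeq's for GRCm38.p6.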

Additional observations from a re-analysis of the deposited data

Results flagged for a closer look

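Within each genotype, 194 groups of 8 libraries were examined for a library far from the others (listed interval genes, other genes followed in the text, library measures and marker lists), and 22 had one. Chance flags about 1 in 20 groups, and some of these genes were named because D809 stood apart in them. D809 accounted for 14 of the 22. It was far below the other deletion libraries in the mean log2 CPM of granule cell markers (5.897 against 7.529 to 8.121), Purkinje cell markers (5.71 against 7.264 to 7.435) and unipolar brush cell markers (3.58 against 5.144 to 5.701), and in Calb1 (176.9 CPM against at least 781.1). It was far above them in Doc2a (14.92 CPM against at most 3.451), Sez6l2 (345.3 CPM against at most 262.5), Tbc1d10b (56.32 CPM against at most 45.64), Gdf11 (34.06 CPM against at most 24.9) and Gm3558 (2.949 CPM against at most 1.802). The same held for Slc6a5 (238.7 CPM against at most 81.22), Hoxa5 (37.68 CPM against at most 11.63), Nefl (1768 CPM against at most 644.5), Nefm (1674 CPM against at most 610.5) and Nefh (1202 CPM against at most 427.6).

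In D810, Gdpd3 stood at 27.87 CPM, against 0.8076 to 8.844 CPM in the other deletion libraries. Blood genes had a mean log2 CPM of 5.541 in D804 and of 2.042 to 3.516 in the rest of the group, and Hbb-bs stood at 370.6 CPM in D804 and at most 123.8 CPM elsewhere in it. Among wild-type libraries, W808 had 5.517 CPM of Tbx6 (others at most 3.469) and 0.1233 CPM of 4930451I11Rik (others at most 0.03356). W805 had 120.9 CPM of Fam57b (others at least 153.6) and 2.384 CPM of Gm21984 (others at most 1.432). W807 had 9.148 CPM of Hoxa5 (others at most 0.8596).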

How the results depend on the processing

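The median of the interval genes stayed negative in all 35 alternative fits, of which 6 were chosen after seeing the data. With the mitochondrial share as covariate 7 interval genes and 1 outside gene higher were called and the median was −0.65. Within the 6 libraries of positive length score 0 interval genes and 1 outside gene higher were called (23 of 29 interval genes had an unadjusted p under 0.05, against 2.1% of all genes), and within the 10 of negative length score 17 and 1 (0.101% of genes lower). Males alone and females alone each gave 0 interval genes and 1 outside gene higher, and these fits had fewer libraries. Outside genes called higher numbered 8 with DESeq2, 4 with 1 surrogate variable, with the length score and with all 48 libraries in 1 fit. Outside genes called lower numbered 1 in several fits, which was not the same gene in each. It was Gdf11 with DESeq2, with the granule cell marker level and without D809 and W813. With the length score it was Sgf29. In the edgeR fit of all 48 libraries it was Xlr4a (−4.89, adjusted p = 0.00299). Leaving out 1 library at a time gave 18 to 21 interval genes lower, medians of −1.05 to −0.96, 2 to 3 outside genes higher and 0 to 1 lower (Gdf11 without D809, and ENSMUSG00000085583, at −1.25, without D812). Signs turned for Gdpd3 (0.43 with the mitochondrial share, 0.54 in the positive length set), Doc2a (0.31 and 0.97 in the same, 0.060 in females only, 0.35 without W813, against −1.30 without D809) and Sept1 (0.11 with the mitochondrial share), and the cause was not tested. The sex and tissue differences stayed at 0 calls in every fit run, which does not show that the effects were equal. With the animal as a replicate block the tissue differences also gave 0 and 0 calls (486 and 387 genes at an unadjusted p under 0.05), and 15 of 16 animals correlated above 0.1 with their cortex and 11 of 16 with their striatum. Over the 51 genes followed, 1633 of 1778 values kept their direction and their side of the threshold, 108 lost a call, 30 gained one and 7 changed sign.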

Other observations

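Genes of the unfolded protein response had positive values for 12 of 15 tested members, their median being 0.16 on the log2 scale, and genes of cholesterol synthesis for 20 of 23, with a median of 0.11 that was 0.01 without D809. Ribosomal protein genes had positive values for 16 of 46 (median −0.01), glutamate receptor genes for 6 of 21 (median −0.08) and potassium channel genes for 10 of 23 (median −0.03). None of these genes passed the test. Choroid plexus and ependymal markers varied within both genotypes, with a mean log2 CPM of 1.41 to 5.06 in the deletion group and 0.93 to 5.90 in wild type, and their median fold change was 0.01 over all libraries and 0.91 without D809 and W813.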
